A study of Homo sapiens with 6 samples.

Results

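The PARP genes encode ADP-ribosyltransferases, enzymes that move ADP-ribose from NAD onto proteins, and DTX3L encodes the ubiquitin ligase that pairs with one of them, PARP9. The 10 genes described here, PARP1, PARP2, PARP4, PARP8, PARP9, PARP10, PARP12, PARP14, TIPARP and DTX3L, are the rows with these symbols among 16617 genes of the authors' deposited table. They were chosen by family, and were selected on the same sgMETTL13 against sgControl values that are given below, so those values are a description and support nothing by themselves. Libraries came from T3M4, an established human cell line of pancreatic ductal adenocarcinoma, grown in DMEM with fetal bovine serum. The 3 sgControl libraries are from cells with a control guide RNA, labelled WT, and the 3 sgMETTL13 libraries are from cells with a guide against METTL13, labelled METTL13 knockdown. METTL13 is a methyltransferase of the translation elongation factor eEF1A. The labels do not say whether the cells are 1 clone or a pool, or whether libraries came from separate cultures, so a deposited p-value may measure technical spread.

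The table holds the average of each group and no value per library, so the spread between libraries cannot be shown. Average estimated reads summed to 15240866 with sgControl and 15247500 with sgMETTL13 over all genes of the authors' deposited table. METTL13, the targeted gene, had 1015 reads on average with sgControl and 142.7 with sgMETTL13, and was at 14.6% of its control level by the fold change in the authors' deposited table. The 6 epithelial and ductal markers, keratins 7, 8, 18 and 19, EPCAM and CDH1, lay between 53.7 and 2107 TPM in sgControl in the authors' deposited table, and none of them was called. Of the markers of other cell types, CD68 stood at 40.9 TPM in sgControl and COL1A1 at 14.0 TPM in the authors' deposited table, and their part in the results was not tested. The 2 other fibroblast markers, the 3 endothelial ones and the acinar and endocrine ones measured reached at most 1.84 TPM in either group of the authors' deposited table. COL1A2, CPA1 and CHGA are listed at 0 in sgControl. PTPRC, CD3E, CELA3A, INS and GCG have no row under these symbols in the authors' deposited table. In RNA from whole cultures, fewer cells of a type and less RNA per cell cannot be told apart.

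Some family members, PARP1 and PARP2 among them, bind broken DNA and build long chains of ADP-ribose that recruit repair proteins. Most others add single ADP-ribose units, and several family members, including PARP9, PARP10, PARP12 and PARP14, are induced by interferon and act in antiviral defence. TIPARP, also called PARP7, is a target gene of the aryl hydrocarbon receptor AHR and damps that receptor in return.

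Among the 10 genes, PARP1, PARP9 and PARP14 were lower and TIPARP was higher in sgMETTL13 at a deposited q under 0.05, the rule for a call used throughout. Called genes made up 3.80% of all genes in the authors' deposited table, 1.08% lower and 2.73% higher. Since all 10 genes lie above the median read count of 205, where calls are more frequent, the closer background is 7.04% of 8309 genes. Because the same values chose the genes, nothing is read from the share of 4 in 10. Their median on the log2 scale was -0.20 in the authors' deposited table, against 0.01 over those 8309 genes. Across all genes there were 453 higher and 179 lower calls, and 259 higher and 192 lower once a trend of fold change with transcript GC content and length was removed. The same trend left the median of the 10 genes at -0.20. Each interval below is implied by the deposited fold change and p-value under a normal test.

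**Figure D1:**
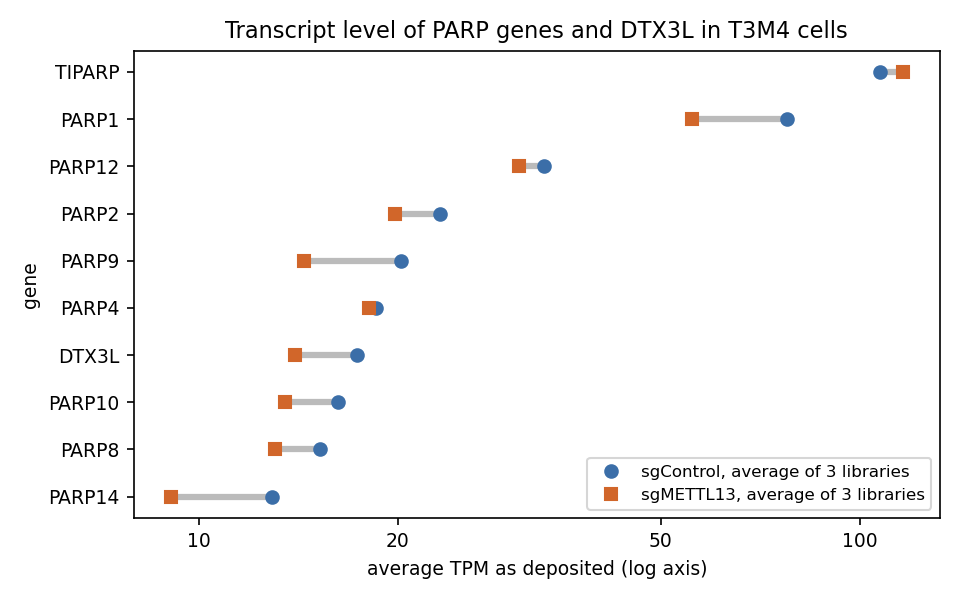
Average TPM of each gene (horizontal, log axis) in sgControl (circles) and sgMETTL13 (squares), each the authors' average of 3 libraries with no error available. TIPARP and PARP1 are the most abundant in both groups, and TIPARP is the 1 gene with the square to the right of the circle.

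TIPARP was the most abundant of the 17 PARP family genes per transcript length, with 107 TPM in sgControl in the authors' deposited table, or 24.1% of the TPM of the family. PARP1 followed at 77.7 TPM (17.4%) in the authors' deposited table. The remaining chosen family genes lay lower, from PARP12 at 33.2 TPM to PARP14 at 12.9 TPM in sgControl in the authors' deposited table, with DTX3L inside that range at 17.4 TPM. The control order of the chosen genes was TIPARP, PARP1, PARP12, PARP2, PARP9, PARP4, DTX3L, PARP10, PARP8 and PARP14. Whether neighbours in that order differ beyond the spread of libraries was not tested, since the table has no library values. In sgMETTL13 the family summed to 398 TPM against 446 TPM in sgControl in the authors' deposited table, the share of TIPARP was 29.2% and that of PARP1 14.0%. Ratios of TPM lack the constant 0.0516 by which deposited fold changes of well-covered genes exceed the ratio of reads. The sum includes genes chosen on these values, so nothing is read from its difference.

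PARP1, the main sensor of DNA strand breaks, had the smallest adjusted p of the 10 genes. It had 2368 estimated reads on average with sgControl and 1721 with sgMETTL13 in the authors' deposited table, and 77.7 against 55.7 TPM. The log2 fold change was -0.41 (implied 95% interval from -0.55 to -0.27, adjusted p = 4.05e-06) in the authors' deposited table, so that 75.4% of the control level was left. This was the 58th lowest fold change of those 8309 well-covered genes. PARP1 (Entrez gene 142) is on chromosome 1, minus strand, between 226360691 and 226408079 (GRCh38, GENCODE 29).

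PARP2, the second break sensor, did not pass the test. It had 323 reads on average with sgControl and 280.3 with sgMETTL13 in the authors' deposited table, with 23.1 against 19.8 TPM. Its log2 fold change was -0.15 (implied 95% interval from -0.40 to 0.10, adjusted p = 0.795) in the authors' deposited table. With 302 mean reads a change of 0.40 on the log2 scale would have been needed for a call, so a difference of the size seen in PARP1 lies at the edge of what was detectable for PARP2. The difference between PARP1 and PARP2 was not tested.

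Of 9 listed genes for single-strand break repair, which handle the lesions that PARP1 marks, the authors' deposited table calls 0 (a comparison for which DESeq2 is named), and 0 had an unadjusted p under 0.05. Their median on the log2 scale was -0.05 per the authors' deposited table. At the background of 3.80% of all genes called, counts of 0 in lists of this size, here and for the lists below, show nothing particular to a list. The smallest p-values belonged to the end-processing enzyme TDP1 (-0.20), the ligase LIG3 (-0.11) and the end-processing enzyme APTX (-0.07) in the authors' deposited table. XRCC1, the scaffold that binds the chains made by PARP1, was at 0.02 on the log2 scale (implied 95% interval from -0.13 to 0.17) in the authors' deposited table and was added for its role after its value was seen.

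**Figure D2:**
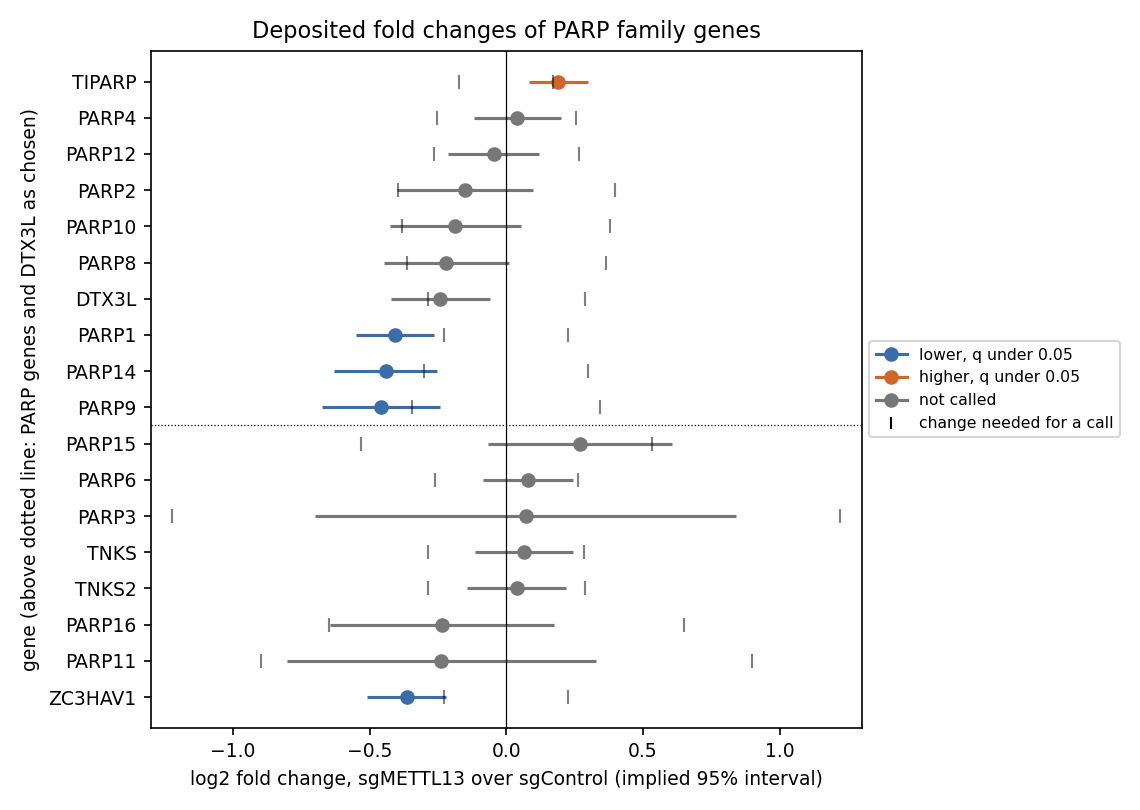
Log2 fold change of sgMETTL13 over sgControl (dots) with the implied 95% interval (lines) for the 10 chosen genes, above the dotted line, and the other 8 family genes below it. Vertical ticks mark the size of change each gene needed for a call; PARP9, PARP14, PARP1 and ZC3HAV1 lie beyond the lower tick and TIPARP beyond the upper one.

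PARP9, PARP14 and DTX3L form the interferon-induced group on chromosome 3. PARP9 and PARP14 carry macrodomains, folds that bind ADP-ribose, and the PARP9 protein and DTX3L work as a complex that adds ubiquitin. PARP9 and PARP14 were called lower, and DTX3L had a smaller difference that did not pass the test.

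PARP9 had 539 reads on average with sgControl and 378 with sgMETTL13 in the authors' deposited table, with 20.2 against 14.4 TPM. The log2 fold change was -0.46 (implied 95% interval from -0.68 to -0.24, adjusted p = 0.00192) in the authors' deposited table, the lowest of the 10 genes and 72.7% of the control level. PARP14, which acts on cytokine signalling, had 779 reads on average with sgControl and 554 with sgMETTL13 in the authors' deposited table, with 12.9 against 9.06 TPM. Its log2 fold change was -0.44 (implied 95% interval from -0.63 to -0.25, adjusted p = 0.000407) in the authors' deposited table, or 73.7% of the control level. With the GC content and length trend removed, PARP9 was at -0.42 and PARP14 at -0.38, both still called.

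DTX3L had 769 reads on average with sgControl and 628 with sgMETTL13 in the authors' deposited table, with 17.4 against 14.0 TPM. The log2 fold change was -0.24 (implied 95% interval from -0.42 to -0.06, unadjusted p = 0.00913, adjusted p = 0.144) in the authors' deposited table. A change of 0.29 would have been needed for a call. The interval of DTX3L overlaps that of PARP9, and the difference between the partners was not tested.

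The reads of these neighbours carry limits of their own. In GENCODE 29 the exons of PARP9 and DTX3L share 217 bases on opposite strands, 2.43% of the exonic bases of PARP9 and 3.70% of those of DTX3L. The sources used here do not say whether counting used the strand, so reads in those bases cannot be told apart. Average reads of DTX3L and PARP14 were not multiples of a whole read over 3 libraries, as happens where a read is divided between genes. The ratio of reads to TPM moves with the length of the isoforms counted. Its shifts here are counted from the median shift of well-covered genes. For PARP9 that ratio shifted by -0.05 on the log2 scale. That of PARP8 shifted by -0.07, while the range from the 5th to the 95th percentile of well-covered genes was -0.04 to 0.03. The other 8 genes lay inside that range.

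**Figure D3:**
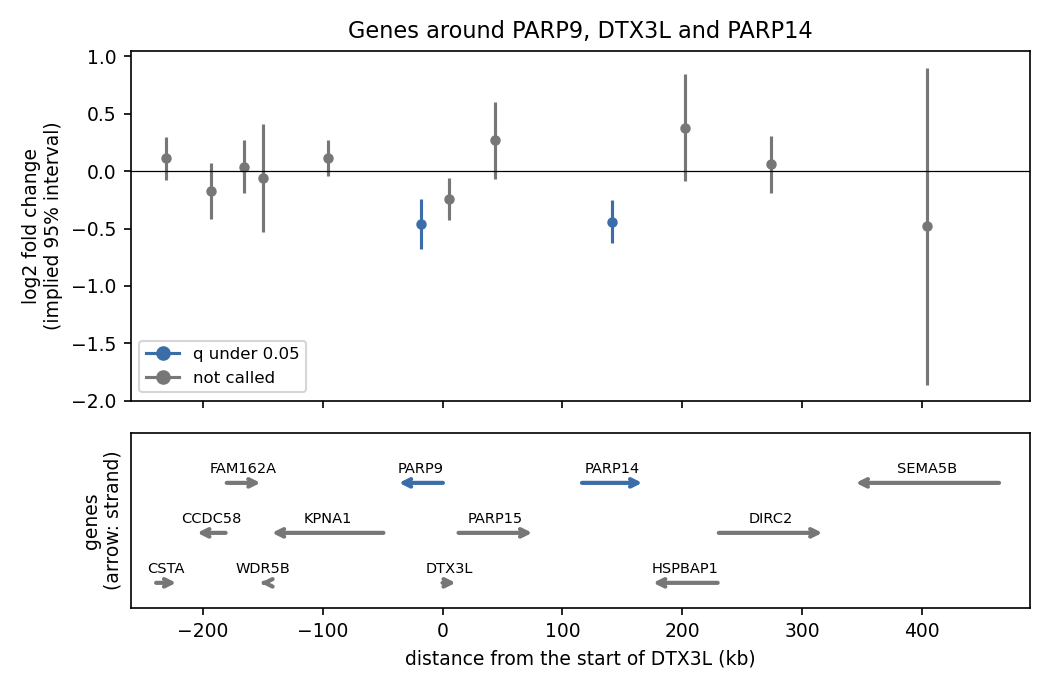
Above, log2 fold change with the implied 95% interval of the 12 measured genes within 200 kb of the span from PARP9 to PARP14, placed at the middle of each gene; below, the genes as arrows along the strand, by distance from the start of DTX3L in kb. PARP9 and PARP14 are the 2 called genes, and PARP15 between them lies above 0.

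PARP9 (minus strand, 122527924 to 122564577) and DTX3L (plus strand, 122564238 to 122575203) lie head to head on chromosome 3 in GRCh38 (GENCODE 29). PARP14 follows on the plus strand from 122680618 to 122730840. PARP15, a relative that lies between DTX3L and PARP14, had 129 reads on average with sgControl and 150 with sgMETTL13 in the authors' deposited table, and was at 0.27 on the log2 scale (implied 95% interval from -0.07 to 0.60, adjusted p = 0.601). Beside PARP9, DTX3L and PARP14, the window holds 9 measured genes, chosen by position after the values were seen. The authors' deposited table calls none of the 9, and their log2 fold changes ran from -0.48 (SEMA5B) to 0.38 (HSPBAP1). Both ends rest on few reads. SEMA5B had 8.67 reads on average with sgControl and 6 with sgMETTL13 (implied 95% interval from -1.86 to 0.90). HSPBAP1 had 62.7 and 78.7 (from -0.09 to 0.85).

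The promoter sequences of the interferon-induced genes are shown because 3 members of the group lie in 1 stretch of chromosome 3 and interferon acts through a known element, the interferon-stimulated response element (ISRE). The core searched was 2 copies of GAAA on 1 strand with any 2 bases between, on both strands, in windows from 250 bases before to 50 after each RefSeq transcript start (GRCh38.p14). Of the 10 genes, 8 matched the promoter table; PARP4 and PARP10 did not. The core is in 3.57% of all 35116 windows. It is in windows of PARP9 (1 of its 2), DTX3L, PARP14 and PARP12, and in none of those of PARP1, PARP2, PARP8 and TIPARP. RefSeq starts PARP9 at 122564300 and DTX3L at 122564338, and 37 bases separate the starts. A single core lies at 122564332 to 122564341, across the start of DTX3L, and so is in both windows. The other RefSeq start of PARP9, at 122564784, is 446 bases from the DTX3L start, and its window holds no such core. Which PARP9 start is used in these cells was not tested. In the sequences below, all 5′ to 3′ on the strand of the named gene, capitals mark the core.
PARP9 to DTX3L, plus strand, chr3:122564301-122564341: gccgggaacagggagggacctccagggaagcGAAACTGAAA
PARP14, plus strand, chr3:122680739-122680838: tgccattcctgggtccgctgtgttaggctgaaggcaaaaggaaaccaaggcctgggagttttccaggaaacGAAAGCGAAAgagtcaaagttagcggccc
PARP12, minus strand, chr7:140062952-140063051: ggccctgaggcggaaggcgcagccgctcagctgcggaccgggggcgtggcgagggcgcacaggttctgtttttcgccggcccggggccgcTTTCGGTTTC
PARP1, minus strand, chr1:226408094-226408193, with no core: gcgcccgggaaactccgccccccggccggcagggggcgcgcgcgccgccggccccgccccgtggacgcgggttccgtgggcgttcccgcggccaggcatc
The PARP14 core ends 20 bases before the start and that of PARP12 ends at the last base before it, in the opposite orientation to the gene. A gamma-activated site (TTC, any 3 bases, GAA, which reads the same on both strands and is in 7.66% of windows) also lies in the PARP14 window, from 40 to 32 bases before the start, and does not overlap the core. PARP2 holds the other such site among the 8 matched genes.

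Presence of the core did not go with a call in every gene. PARP9 and PARP14 hold it and were called lower, and DTX3L and PARP12 hold it and were not called. PARP1 was called lower with no such letters in its window. Of 542 measured genes with the core in any window 25 were called lower (4.61%), and of all 13104 measured genes with a window 147 were (1.12%) in the authors' deposited table. Among well-covered genes these shares were 8.18% (22 of 269) and 1.87% (129 of 6895) in the authors' deposited table. The larger sets include the genes with the core. PARP9 and PARP14, chosen on these same values, are among the genes with the core that were called lower. Whether the core goes with a call was not tested. A match says that the letters are there and nothing on binding.

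**Figure D4:**
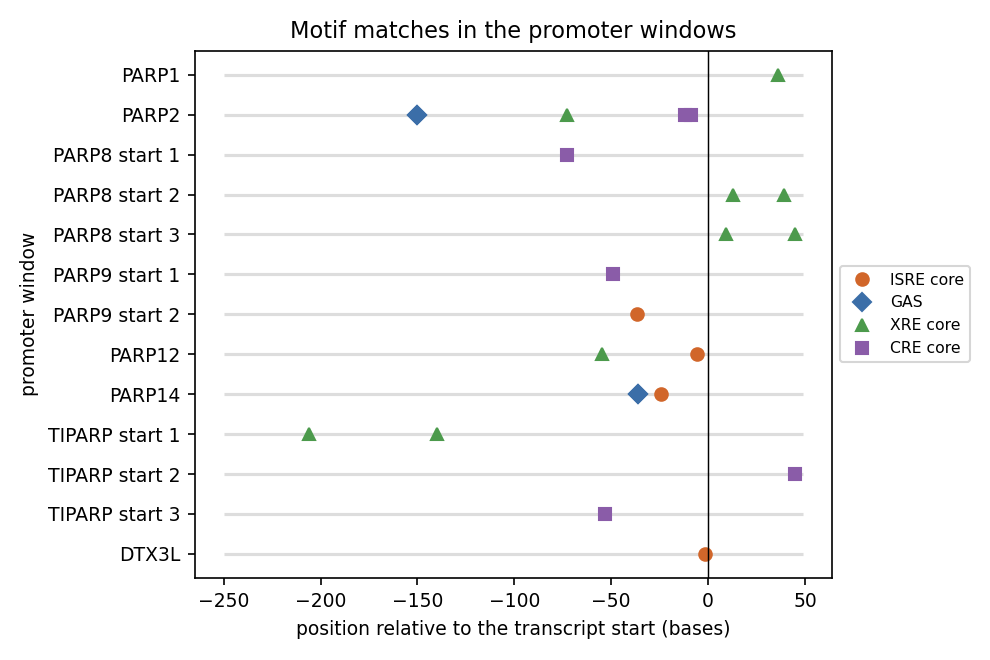
Positions of motif matches in each RefSeq promoter window of the 8 matched genes, in bases relative to the transcript start at 0 (vertical line); genes with several starts have a row for each. The ISRE core lies within 50 bases of a start in PARP9, PARP12, PARP14 and DTX3L and in no other row.

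PARP12, a zinc finger family member of the antiviral group, had 944 reads on average with sgControl and 882 with sgMETTL13 in the authors' deposited table, with 33.2 against 30.5 TPM. Its log2 fold change was -0.05 (implied 95% interval from -0.21 to 0.12, adjusted p = 0.968) in the authors' deposited table. The interval stops short of the fold changes of PARP9 and PARP14, which have intervals of their own. The differences of PARP12 from PARP9 and PARP14 were not tested. Its relative ZC3HAV1, also known as PARP13 or ZAP, binds viral RNA and has no transferase activity. ZC3HAV1 had 1713 reads on average with sgControl and 1284 with sgMETTL13 in the authors' deposited table, or -0.37 on the log2 scale (implied 95% interval from -0.51 to -0.22, adjusted p = 6.89e-05), with reads divided between genes. Its ratio of reads to TPM shifted by 0.06 from the median shift of well-covered genes, outside that range of percentiles.

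Genes of interferon signalling moved in both directions. The interferon-induced protease USP18 was called lower, at -0.95 on the log2 scale (adjusted p = 1.68e-07) in the authors' deposited table. SOCS1, an inhibitor of the JAK kinases, was at 0.63 (adjusted p = 2.03e-05) and the receptor chain IFNGR2 at 0.31 (adjusted p = 0.00262) in the authors' deposited table, both called higher. IRF9, a DNA-binding factor that acts at the ISRE, was at -0.22 and was not called (adjusted p = 0.265) in the authors' deposited table. From the same list STAT2 was at -0.09, IRF7 at -0.08 and IRF1 at 0.00 in the authors' deposited table, and they were not called either.

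PARP10, a mono-ADP-ribosyltransferase first found as a partner of MYC, had 434 reads on average with sgControl and 367 with sgMETTL13 in the authors' deposited table, with 16.2 against 13.5 TPM. The log2 fold change was -0.19 (implied 95% interval from -0.43 to 0.05, adjusted p = 0.631) in the authors' deposited table. It has the highest transcript GC content of the 10 genes, 65.8%, against 42.4% in the lowest. With the GC content and length trend removed its log2 fold change was -0.31 with an adjusted p of 0.196, a move of over 1.5 times that did not bring a call. In GENCODE 29 its exons share 324 bases with GRINA and 197 with SPATC1, both on the opposite strand.

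**Figure D5:**
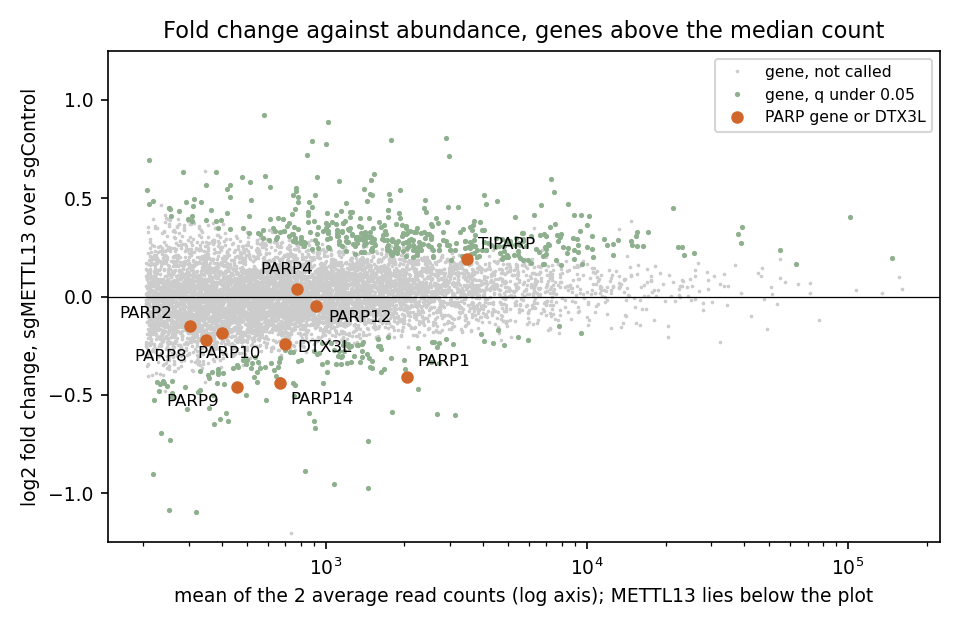
Log2 fold change (vertical) against mean read count (horizontal, log axis) of the 8309 genes with at least the median count, with called genes in green and the 10 chosen genes in orange. PARP1, PARP9 and PARP14 lie at the lower edge of the cloud and TIPARP above its middle; METTL13 is off the plot at -2.78.

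TIPARP was the 1 gene of the 10 called higher. It had 3310 reads on average with sgControl and 3641 with sgMETTL13 in the authors' deposited table, with 107 against 116 TPM. The log2 fold change was 0.19 (implied 95% interval from 0.08 to 0.30, adjusted p = 0.01996) in the authors' deposited table, or 114% of the control level. By the ratio of average TPM with a pseudocount of 1 it was 0.11, a difference over 1.5 times smaller. That ratio lacks the constant 0.0516 by which the deposited fold changes of well-covered genes exceed the ratio of reads. The shift of TIPARP in the ratio of reads to TPM was -0.0001 from the median of well-covered genes. With 3476 mean reads TIPARP had the smallest implied standard error of the 10 genes, 0.0551, and a change of 0.17 sufficed for a call. By size it ranked 886th among rises of the 8309 genes.

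TIPARP lies on chromosome 3, plus strand, between 156673235 and 156706770 (GRCh38, GENCODE 29). Its promoter is shown because AHR acts through the xenobiotic response element, whose core GCGTG was searched on both strands. The core is common, in 36.5% of all windows, and is in the windows of 5 of the 8 matched genes. Of 7206 measured genes with this core 2.93% were called higher, against 2.81% of the 13104 measured genes with a window. The 250 bases before the first RefSeq start of TIPARP hold it at 2 places, both on the opposite strand, where it reads as the capitals below.
TIPARP, plus strand, chr3:156674340-156674589: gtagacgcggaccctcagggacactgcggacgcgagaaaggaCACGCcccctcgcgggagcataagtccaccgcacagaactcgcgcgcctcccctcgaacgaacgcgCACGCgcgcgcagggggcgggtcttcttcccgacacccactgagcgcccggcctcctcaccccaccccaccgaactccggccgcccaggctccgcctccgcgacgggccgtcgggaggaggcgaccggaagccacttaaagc
The windows of the other 2 TIPARP starts hold no such core, and each holds 1 match to the cAMP response element core TGACG, which is in 24.6% of windows.

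Among 9 measured genes of the AHR pathway the authors' deposited table calls 0 (a comparison for which DESeq2 is named), and 3 had an unadjusted p under 0.05. With 3.80% of all genes and 7.04% of well-covered genes called, a count of 0 in 9 is near the background and is no result about the pathway. These were the detoxifying oxygenase CYP1A1 (log2 fold change -0.18, adjusted p = 0.194), the aldehyde dehydrogenase ALDH3A1 (0.18, adjusted p = 0.244) and the quinone reductase NQO1 (0.12, adjusted p = 0.338) in the authors' deposited table. The median of the 9 genes was 0.00 on the log2 scale of the authors' deposited table. AHR itself, named for its role, was at -0.06 (implied 95% interval from -0.21 to 0.08) in the authors' deposited table.

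PARP4, the family member of the vault particle, had 781 reads on average with sgControl and 775 with sgMETTL13 in the authors' deposited table, with 18.5 against 18.1 TPM. Its log2 fold change was 0.04 (implied 95% interval from -0.12 to 0.20, adjusted p = 0.968) in the authors' deposited table, and its sign turned to -0.0117 by the plain ratio of average reads. PARP8, a mono-ADP-ribosyltransferase, had 379 reads on average with sgControl and 314 with sgMETTL13 in the authors' deposited table, with 15.3 against 13.03 TPM. Its log2 fold change was -0.22 (implied 95% interval from -0.45 to 0.01, adjusted p = 0.445) in the authors' deposited table. At 346 mean reads PARP8 needed a change of 0.36 for a call.

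Of the other 8 family genes ZC3HAV1 was called lower and 7 missed the threshold of the authors' deposited table. PARP15 (0.27) and PARP16 (-0.24), the latter a membrane protein of the endoplasmic reticulum, had the smallest p-values after ZC3HAV1 in the authors' deposited table. The tankyrases TNKS and TNKS2, which build chains on axin and telomere proteins, were at 0.06 (implied 95% interval from -0.12 to 0.24) and 0.04 (from -0.14 to 0.22) in the authors' deposited table. PARP6, at 42.7 TPM the fourth most abundant of the family, was at 0.08 (implied 95% interval from -0.09 to 0.24) in the authors' deposited table. By the authors' deposited table PARP3 and PARP11 were under 2 TPM, and their intervals span more than 1 on the log2 scale. The authors' deposited table calls 5 of 17 family genes, 4 lower and 1 higher, with a median of -0.15, against 3.80% of all genes and 7.04% of well-covered genes. Of these 5 calls, 4 are genes chosen on the same values, and outside them the count is 1 of 8, so nothing is read from the share.

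The list for ADP-ribose removal and reading had 0 calls in 15 genes of the authors' deposited table (a comparison for which DESeq2 is named). Not all of the 15 genes encode enzymes. Their median was -0.11 on the log2 scale, and 1 had an unadjusted p under 0.05. That gene was NUDT16, a hydrolase that can cut ADP-ribose from proteins, at -0.40 (implied 95% interval from -0.66 to -0.13, adjusted p = 0.0744) in the authors' deposited table. The ratio of reads to TPM of NUDT16 shifted by -0.17 from the median shift of well-covered genes. That is outside their range from the 5th to the 95th percentile. The macrodomain histone gene listed as H2AFY was at -0.11 (adjusted p = 0.444) and the chromatin remodeller CHD1L at -0.15 (adjusted p = 0.598) in the authors' deposited table. PARG, the main enzyme that degrades the chains, was at -0.15 (implied 95% interval from -0.37 to 0.08) in the authors' deposited table.

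Genes that make or use NAD, the substrate of the family, had 0 calls in 13 measured genes of the authors' deposited table (a comparison for which DESeq2 is named), and 3 had an unadjusted p under 0.05; their median was 0.01 on the log2 scale. NNMT, which methylates nicotinamide, was at -0.36 (adjusted p = 0.0875), the salvage enzyme NAMPT at 0.21 (adjusted p = 0.0983) and NMNAT2 at -0.40 (adjusted p = 0.325) in the authors' deposited table. Of the other 4 Deltex ubiquitin ligases, relatives of DTX3L, DTX4 was called lower in the authors' deposited table, and their median of -0.52 includes 2 genes with almost no reads. DTX4 had 590 reads on average with sgControl and 443 with sgMETTL13, or -0.36 on the log2 scale (implied 95% interval from -0.56 to -0.17, adjusted p = 0.0115) in the authors' deposited table. DTX2 was at 0.11 (adjusted p = 0.725) in the authors' deposited table, and DTX1 and DTX3 averaged under 10 reads.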

How the data were processed

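RNA was extracted with TRIzol and libraries were made by a sequencing company, per the labels' protocols. RSEM 1.2.12, HISAT2 2.0.4, DESeq2 and Bowtie2 2.2.5 are named in the submitters' processing notes, with the builds hg38 and GRCh38.p12; the role of each, the annotation and the strand setting are not given. Per the file headers, the deposited table holds each group's average TPM, average FPKM (not used) and average read count. The deposited read count is the authors' average estimated count (an expected count, not normalized): in 21.4% of genes it is no whole number of reads divided by 3 libraries (tolerance 0.005 on the sum). The authors also deposited a log2 ratio of KD over WT, a p-value and a q-value, here the adjusted p. The deposited log2 fold change equals the log2 ratio of average reads plus 0.0516 (SD 0.0007) among well-covered genes (mean read count of at least the median).

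No count model was fitted here, since the table has no value per library: the planned quasi-likelihood fit was replaced by the deposited comparison, as planned for such a table. The depth of single libraries is unknown. The implied standard error divides the absolute deposited log2 fold change by the normal quantile of its p-value. The change needed for a call is that error times the quantile at the largest called p, 0.00186. The members and lists were chosen with earlier results of these data known. The text names all 10 members and METTL13, and of each list the called genes or the 3 with the smallest p. Others named for role or abundance were added after their values were seen. They are XRCC1, AHR, PARG, PARP3, PARP6, PARP11, TNKS, TNKS2, IRF9, STAT2, IRF7, IRF1, DTX1, DTX2, DTX3, PARP15 and PARP16. For the interferon signalling list, 1 gene and the counts over the list are not reported here. GENCODE 29 matched 97.6% of genes by Entrez ID; RefSeq promoter windows are of GRCh38.p14. The trend in GC content and length was a spline fit of 4 degrees of freedom each, weighted by the inverse of the implied error, with an intercept. Steps were tested on simulated data. Tools were scipy 1.17.1, patsy 1.0.2, matplotlib 3.10.9, numpy 2.4.6 and pandas 2.3.3 under Python 3.11.15.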

Additional observations from a re-analysis of the deposited data

How the results depend on the processing

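No paired analysis was possible because the table holds group averages, and for the same reason no replicate could be left out. Across thresholds, adjustments, a filter on read count, centring and trend removal, PARP1 was called lower in every setting run. PARP9 and PARP14 lost the call under Bonferroni adjustment (adjusted p = 0.515 and 0.0759), and TIPARP lost it at a q under 0.01 and under Bonferroni. The members called were then 3 lower and 0 higher at a q under 0.01, and 1, being 1 lower and 0 higher, under Bonferroni. All other settings that give calls gave 3 lower and 1 higher. The ratios of average reads and of average TPM give no call. By the ratio of average reads TIPARP was at 0.14, against 0.19 as deposited. Over all genes, 409 were called at a q under 0.01 (104 lower), 269 were called lower at a q under 0.10, and Bonferroni left 180 (136 higher, 44 lower); removing the trend in GC content and length left 259 higher, and the cause was not tested. PARP4 changed sign to -0.0117 by the ratio of average reads. It was at -0.0329 and -0.0313 by the ratio of average TPM with a pseudocount of 0.1 and 1. Both ratios lack the constant 0.0516 of the deposited values. The shift of PARP4 in the ratio of reads to TPM was -0.00049 from the median of well-covered genes. The members' median with the trend removed (-0.20) and the alternatives for related genes were added after the data were seen; of the related genes named, IFNGR2 and DTX4 lost the call under Bonferroni and DTX4 also at a q under 0.01. PARP2, with 302 mean reads the least covered of the members, needed a change of 0.40 for a call.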
